A study of Schizosaccharomyces pombe with 3 samples.

Results

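The genes cgs1, cgs2, pka1 and git11 encode components of the cAMP pathway, through which fission yeast responds to glucose. They are 4 of the 444 genes found in the deposited tables. Each was located by its name in the description or protein match column, or by its gene identifier. The members were chosen from the measured values, because the tables are taken to list only genes that had passed a screen between libraries. That screen asked for a difference of at least 2-fold and a limit on the false discovery rate. The differences of the members are therefore given as descriptions, with no test.

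Wild type cells of the haploid S. pombe strain 972h- were grown to mid-log phase in synthetic dextrose medium with 3% glucose (T1), 5% glucose (T2) or 8% glucose (T3) from the start of the culture. All cells came from a single colony. RNA of 3 replicates was pooled for each concentration and sequenced as 1 library, so no difference has a replicate check, and the sources do not say whether these replicates were separate cultures. The values are expected counts, which are estimated numbers of fragments per gene, and FPKM, which are counts scaled to transcript length and library depth. Counts and FPKM together imply scaling totals of 5745006, 5888271 and 5818492 fragments for T1, T2 and T3. These totals are not the sequencing depth, and they lie below the numbers of read pairs mapped to genes in the study, for a reason that was not tested. All intervals are exact 95% Clopper-Pearson intervals from the 2 counts unless another method is named, with exact Poisson intervals for single levels. They cover counting error only, and not the spread between replicates.

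In S. pombe, glucose is sensed at the cell surface by the receptor Git3, which acts through the G protein alpha subunit Gpa2 and the beta and gamma subunits Git5 and Git11. The signal activates adenylate cyclase, Cyr1, which makes cAMP. cAMP binds Cgs1, the regulatory subunit of protein kinase A, and frees the catalytic subunit Pka1. The phosphodiesterase Cgs2 breaks cAMP down again. Active Pka1 is known to hold back gluconeogenesis and sexual development when glucose is plentiful. Git11 and Pka1 thus act in the forward direction of the signal, while Cgs1 and Cgs2 restrain it.

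All 4 genes had their lowest measured level at 8% glucose. The 2 restraining genes showed the larger differences, with cgs1 3.66-fold and cgs2 3.53-fold lower in T3 than in T1. The 2 forward-acting genes were lower by close to the limit of the screen, git11 2.10-fold against T1 and pka1 2.17-fold against T2. Against T2, the baseline of pka1, cgs2 was 2.71-fold lower, a narrower gap. The tables hold a value in all 3 libraries only for cgs2. For cgs1 and git11 no T2 value is given, and for pka1 no T1 value, because these genes were tabled in a single comparison.

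**Figure D1:**
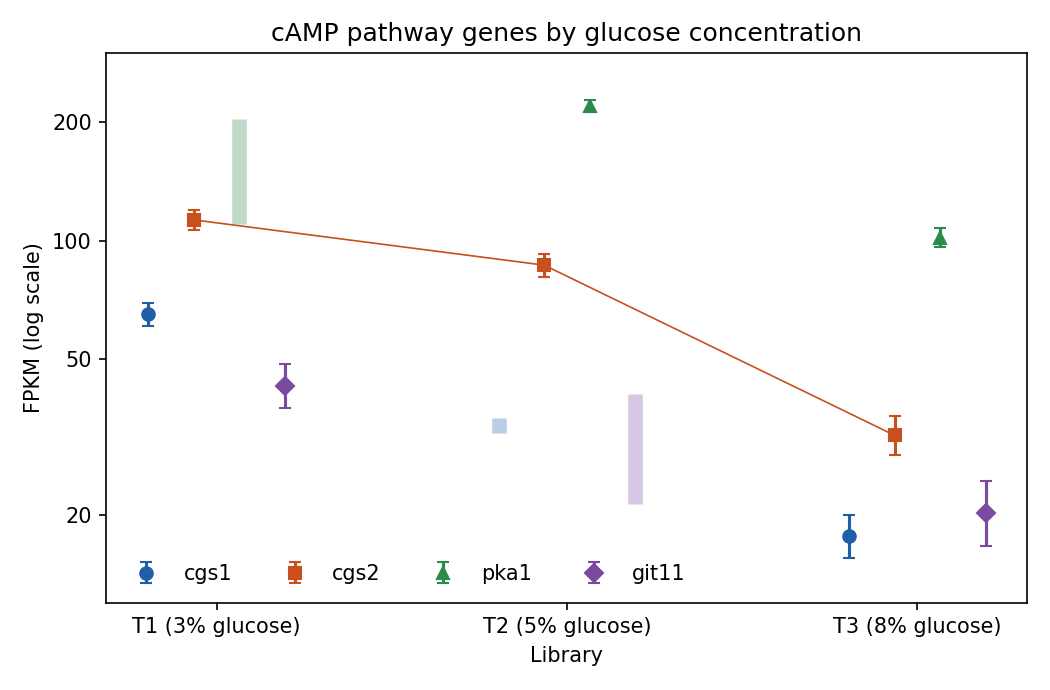
Expression of cgs1, cgs2, pka1 and git11 in FPKM (log scale) in the T1, T2 and T3 libraries, with points for tabled values and error bars for exact 95% Poisson intervals of the counts. A line joins the 3 values of cgs2, and shaded bars mark the range in which a value missing from the tables would lie if it differed by less than 2-fold from both other libraries (for example 32.4 to 35.4 FPKM for cgs1 in T2). Every gene stands lowest in T3, from 17.7 FPKM for cgs1 to 102 FPKM for pka1.

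The 500 bases before each start codon were read from assembly ASM294v3 (RefSeq), because every member was lower in T3 wherever it was tabled. No single comparison holds all 4, and the members were chosen through these decreases. The windows were searched on both strands for 3 runs of letters. These were CCCCTC, bound by Rst2, TGACGT, the core bound by the stress-responsive factors Atf1 and Pcr1, and TTCTTTG, the core bound by Ste11. The TGACGT core was found before cgs1 and cgs2, and in 7.97% of the 5122 windows in the genome. CCCCTC was found before cgs2 only among the members, and in 3.49% of all windows. TTCTTTG was found before none of the 4, and in 18.3% of all windows. The windows of pka1 and git11 held none of the 3. Each window ends at the start codon, so part of it can lie within the transcript. In ASM294v3 git11 has 219 coding bases in a transcript of 987 bases, and the model of pka1 is marked as partial. The matches are shown on the strand of the gene, with the searched letters in capitals.
cgs1, TGACGT, starting 273 bases before the start codon and 63 bases before the annotated transcript: agtacattttaTGACGTatgagtgagct
cgs2, TGACGT, starting 71 bases before the start codon and 59 bases before the annotated transcript: tgtaataaataTGACGTcaaccgacatg
cgs2, CCCCTC, starting 461 bases before the start codon and 449 bases before the annotated transcript: caacaaaacttCCCCTCagaaatgttaa
In cgs2 the core continues into the palindrome TGACGTCA, so the same site was matched on both strands. This longer form, looked for after the core had been seen, was present in 16 of the 5122 windows (0.312%). A match is a run of letters and shows no binding. The genome build behind the tables is not named in the labels or methods. The transcript models in the tables are an earlier version, with 2206 bases for pka1 against 1966 in ASM294v3, but the proteins carry the same accessions.

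The regulatory subunit gene cgs1 had 871 counts in T1, or 64.9 FPKM (60.6 to 69.3), and 242 counts in T3, or 17.7 FPKM (15.5 to 20.1). The T3 level was 27.3% of the T1 level, a log2 ratio of -1.87 (95% interval -2.08 to -1.67). In fold terms, the decrease was 3.66-fold (3.17 to 4.24). Counting error was 3.39% of the count in T1 and 6.43% in T3. By size it was the 28th of the 132 decreases in the T1 vs T3 table.

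For the phosphodiesterase gene cgs2 the counts were 1095 in T1, 868 in T2 and 316 in T3, or 113 FPKM (106 to 120), 86.6 FPKM (80.9 to 92.6) and 32.0 FPKM (28.5 to 35.7). The intervals of the 3 levels did not overlap. In these 3 single libraries the level was lower at each higher glucose concentration, and most of the difference lay between 5% and 8%. The intervals do not include the spread between cultures or libraries, so a graded response to glucose was not tested. At 8% glucose cgs2 stood at 28.3% of T1, a 3.53-fold decrease (3.11 to 4.01). Relative to T2 it stood at 36.9%, a 2.71-fold decrease (2.38 to 3.09). Between T1 and T2 the decrease was 1.30-fold (1.19 to 1.43), a comparison in which cgs2 was not tabled. This is the only value of a member outside the screen. In log2 units the first step of glucose corresponded to -0.38 and the second to -1.44.

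The kinase gene pka1 had the highest level of the 4 in T3, and in T2 it was above cgs2, the only other member with a T2 value. It had 2796 counts in T2, or 220 FPKM (212 to 228), and 1274 counts in T3, or 102 FPKM (96.2 to 107). The T3 level was 46.2% of the T2 level, a 2.17-fold decrease (2.03 to 2.32) and a log2 ratio of -1.11 (-1.21 to -1.02). The interval lay wholly beyond 2-fold, but only narrowly. Among the 101 decreases of the T2 vs T3 table it ranked 86th by size and 36th by level.

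The smallest counts belonged to git11, whose product is the G protein gamma subunit and the shortest of the 4 proteins, with a coding sequence of 219 bases. It had 230 counts in T1, or 42.8 FPKM (37.4 to 48.6), and 112 counts in T3, or 20.3 FPKM (16.7 to 24.5). The decrease was 2.10-fold, with a 95% interval of 1.67 to 2.66 that reached below 2-fold. Its log2 ratio of -1.07 was the 116th of 132 decreases by size. The smallest decrease in that table, of the splicing factor gene slu7, was -1.01, so git11 lay just inside the limit.

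The members can also be set beside each other within a pair of libraries. Because all were found through these same ratios, the differences are descriptions. In T3 against T1 the log2 ratio of cgs1 minus that of cgs2 was -0.05, with a 95% interval of the difference from -0.33 to 0.22 (normal approximation on the log scale). The decreases of the regulatory subunit and the phosphodiesterase genes were thus not resolved from each other. The corresponding difference from git11 was -0.80 for cgs1 (-1.19 to -0.42) and -0.75 for cgs2 (-1.12 to -0.38). In T3 against T2, cgs2 minus pka1 was -0.32 (-0.53 to -0.11).

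Within each library the levels can be ordered per length. In T1 cgs2 stood 1.74-fold above cgs1 (95% interval 1.59 to 1.90), and cgs1 1.52-fold above git11 (1.31 to 1.76). In T3 cgs2 was still 1.81-fold above cgs1, with a lower bound of 1.52. The order of cgs1 and git11 was no longer resolved there, with git11 at 1.15 times the level of cgs1 (0.91 to 1.44). The kinase gene pka1 was 5.74-fold above cgs1 in T3 (5.00 to 6.61). Relative to cgs2, pka1 was 2.54-fold higher in T2 (2.35 to 2.75) and 3.18-fold higher in T3 (2.81 to 3.61).

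The missing values can be bounded only if absence from a table means a difference under 2-fold. A gene could also be absent through the limit on the false discovery rate. Among genes with values in all 3 libraries there were 162 pairs of gene and comparison that were not tabled. Of these, 109 had at least 100 counts in both libraries, and none of the 109 differed by 2-fold or more. The 4 pairs past 2-fold all had fewer counts, and the largest was 2.11-fold. Each gene in this check was tabled in both other comparisons. The genes cgs1, git11 and pka1 were tabled in a single comparison, so they and genes like them could not enter it. The check therefore does not show whether the 2-fold condition holds for them. On that condition, cgs1 in T2 would lie between 32.4 and 35.4 FPKM, git11 in T2 between 21.4 and 40.7 FPKM, and pka1 in T1 between 110 and 203 FPKM. With these bounds cgs1 at 5% glucose would be close to the midpoint of its levels at 3% and 8% on a log scale, while pka1 would be highest at 5%. These ranges, and both of these placements, are fixed by the assumed 2-fold limit for absent genes and are not measurements.

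In the T1 vs T3 table, 3 of the 4 members were present and all 3 were lower in T3, where 36.0% of the 367 tabled genes were lower. In the T2 vs T3 table both members present, cgs2 and pka1, were lower in T3, where 55.8% of the 181 tabled genes were lower. No member was in the T1 vs T2 table. The tables hold 367, 87 and 181 genes for T1 vs T3, T1 vs T2 and T2 vs T3, equal to 7.16%, 1.70% and 3.53% of the 5124 protein-coding genes that RefSeq lists. For T1 vs T3 and T1 vs T2 the study reports fewer genes past its screen than these tables hold, for a reason that was not tested. The genes that were lower in T3 than in T1 had a median decrease of 2.76-fold, which cgs1 and cgs2 exceeded and git11 did not. Against T2 the median was 2.90-fold, larger than the decrease of cgs2 or pka1. Because presence in a table is how the members were found, nothing is read from these shares.

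**Figure D2:**
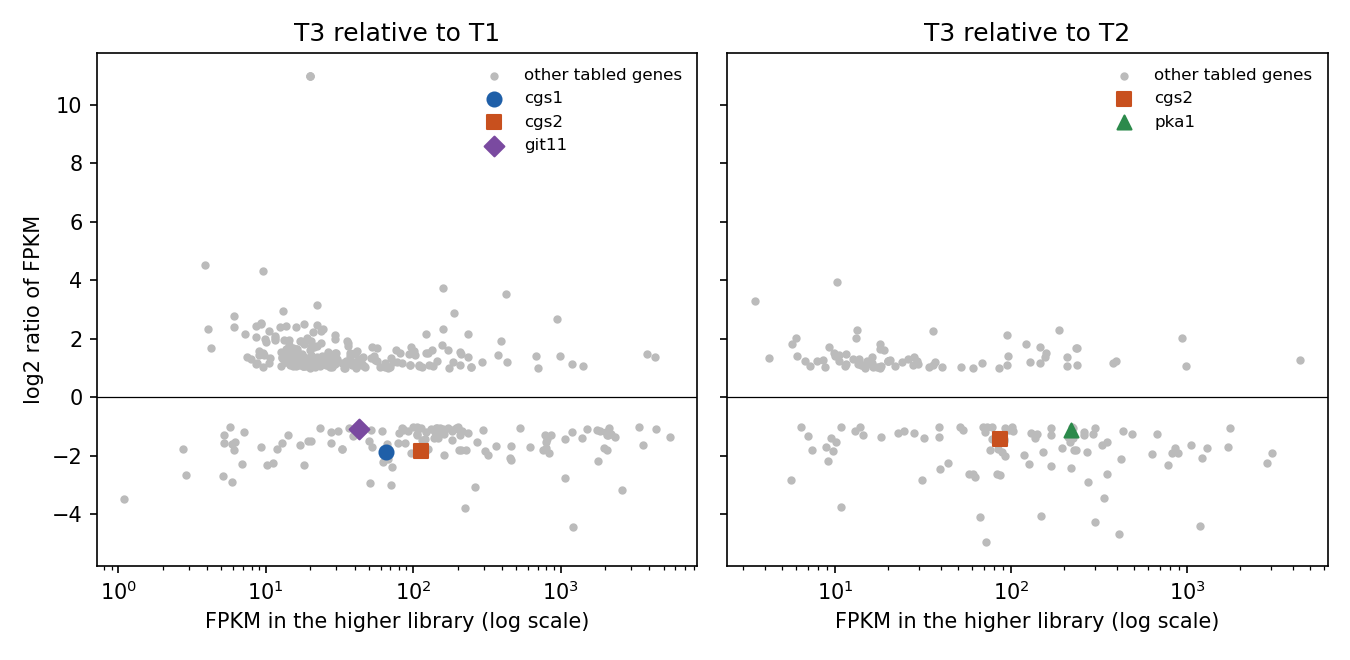
Log2 ratio of FPKM in T3 to T1 (left) and in T3 to T2 (right) against the FPKM of the higher library (log scale) for every tabled gene with reads in both libraries, 363 and 180 genes. The colored symbols are cgs1 (-1.87), cgs2 (-1.82 and -1.44), git11 (-1.07) and pka1 (-1.11), and all lie among the decreases. By FPKM of the higher library, cgs1, cgs2 and git11 stand 91st, 73rd and 99th of the 132 decreases on the left, and cgs2 and pka1 61st and 36th of the 101 on the right.

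Other genes were taken from a list of 13, drawn up to run from the receptor to the kinase. Besides the 4 members only rgs1 was found in a table. The members were chosen for being in a table, so no share is read from this count. The product of rgs1 belongs to the regulators of G protein signaling and is known for its role in the pheromone response. It is not among the steps of the glucose signal described above. The gene rgs1 went in the opposite direction to the members, with 469 counts (29.5 FPKM) in T1, 593 (36.2 FPKM) in T2 and 1552 (96.1 FPKM) in T3. Its T3 level was 3.25 times that of T1 (2.93 to 3.62) and 2.65 times that of T2 (2.41 to 2.92). The list thus had 3 genes lower and 1 higher in T3 than in T1, and 2 lower and 1 higher in T3 than in T2. The median log2 ratio of its tabled genes was -1.45 against T1 and -1.11 against T2, beside 1.12 and -1.03 over all tabled genes with reads in both libraries. Most of the tabled genes of this list are members chosen from these same ratios. Every tabled gene also lies beyond 2-fold, so nothing is read from this contrast. The other 8 genes, namely git3, gpa2, git5, cyr1, git1, git7, cap1 and swo1, have no value here. Whether their levels differed by less than the screen demands is not shown by the tables.

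A further list held 12 transcription factors, corepressors and target genes, drawn up as candidates to act below Pka1. Of these, rsv1 and scr1 were tabled, both in T1 vs T3, a table whose size equals 7.16% of the protein-coding genes. Both encode zinc finger regulators of glucose-repressed genes, and both were lower in T3 than in T1. Whether rsv1 and scr1 respond to Pka1 was not tested. The gene scr1 had 1691 counts in T1 and 808 in T3 (85.1 and 40.0 FPKM). For rsv1 the counts were 109, 274 and 38 in T1, T2 and T3, or 12.9, 31.4 and 4.42 FPKM, so that rsv1 was highest at 5% glucose, unlike cgs2. The median log2 ratio of rsv1 and scr1 in T3 against T1 was -1.32, and in T1 vs T2 rsv1 was the only tabled gene of this list. The remaining 10 genes, among them rst2, the transcription factor that Pka1 inhibits, fbp1 of gluconeogenesis and ste11 of sexual development, have no value here.

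Of 17 kinases, phosphatases and stress-pathway components that work beside Pka1, pyp2 and ppk31 were tabled. Both were in T1 vs T3, a table whose size equals 7.16% of the protein-coding genes, and nothing is read from so few genes. The phosphatase gene pyp2, whose product inactivates the stress-activated kinase Sty1, had 1397, 1935 and 485 counts in T1, T2 and T3 which in FPKM was a 3.94-fold decrease from T2 to T3 (3.56 to 4.36). Its level at 5% glucose was the highest of the 3, as for rsv1. With 1 gene lower and 1 higher in T3 than in T1, this list had a median log2 ratio of -0.22. The kinase gene ppk31 had 176 counts in T1 and 386 in T3, 2.16-fold higher in FPKM (1.80 to 2.59). The gene pac2, chosen after its values were seen because its protein is described in the tables as a cAMP-independent regulator, had 440 counts in T1 and 938 in T3, 2.07-fold higher (1.85 to 2.33).

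**Figure D3:**
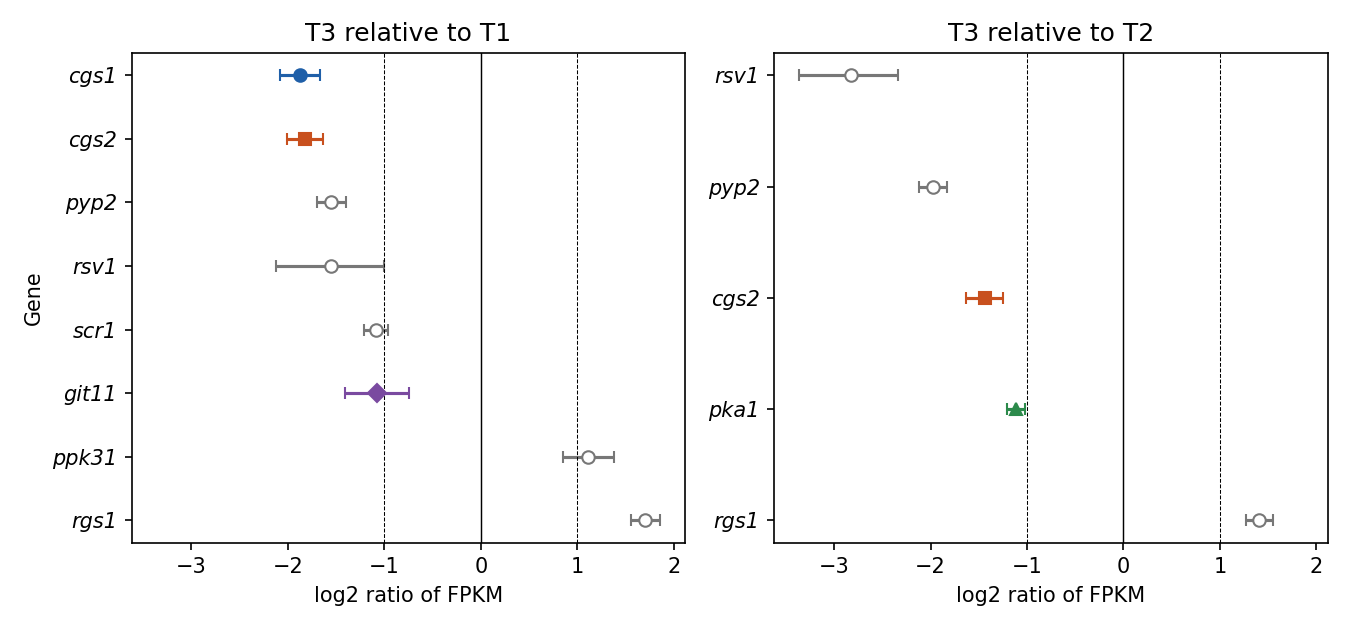
Log2 ratio of FPKM in T3 relative to T1 (left) and to T2 (right) for the members (filled, colored) and the other tabled genes of the 3 lists (open, grey), with 95% intervals from counts. The dashed lines mark 2-fold. The members lie on the negative side, cgs1 at -1.87 and cgs2 at -1.82 against T1, and rgs1 lies at 1.70 and 1.41 on the positive side.

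Over the 3 libraries, likeness of pattern could be measured for cgs2 only. It was taken as the distance between profiles of log2(FPKM + 1), each centered on its own mean, and 176 other genes were ranked. The nearest was SPCC1739.08c, an uncharacterized oxidoreductase, at a distance of 0.037. Its levels were 119, 91.1 and 32.7 FPKM, so T2 and T3 stood at 76.4% and 27.4% of T1, against 76.7% and 28.3% for cgs2. The next was psi1, which encodes a DnaJ-type cochaperone, at 0.160, with 362, 261 and 114 FPKM. The third was SPBC3D6.16, an uncharacterized gene, at 0.167, with 323, 212 and 82.7 FPKM. With only 3 libraries behind it, this order is a description of these samples.

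**Figure D4:**
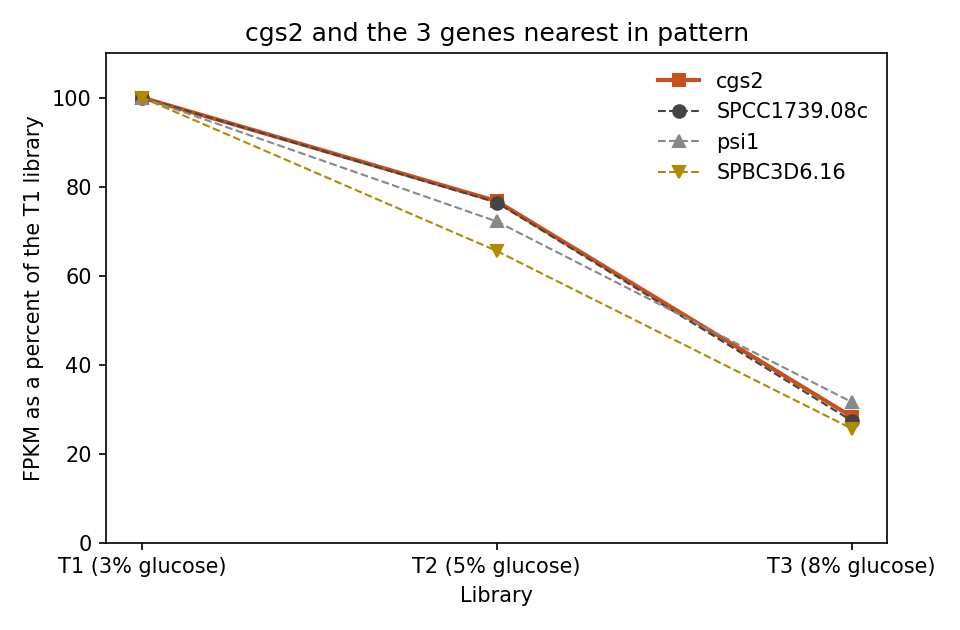
FPKM in each library as a percent of the T1 library for cgs2 and its 3 nearest genes. In T2 the genes stood between 65.5% and 76.7% of T1 and in T3 between 25.6% and 31.6%, and the line of SPCC1739.08c nearly covers that of cgs2.

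The members do not lie together in the genome. In ASM294v3, cgs1 is on chromosome I, pka1 and git11 on chromosome II and cgs2 on chromosome III. The coding sequence is 1239 bases in 2 exons for cgs1, 1041 bases in 4 exons for cgs2 and 1539 bases in a single exon for pka1, while git11 has 2 exons. The nearest protein-coding gene on either side of each member was in no table. The transcripts of cgs2 and ret2 overlap tail to tail by 496 bases, and antisense non-coding RNAs are annotated over cgs1 and cgs2. No described step assigned reads by strand, so strand did not keep reads of such partners apart in the steps described. Their part in the values was not tested. All counts of the 4 genes were whole numbers, whereas 32 of the 444 genes had fractional counts, which mark reads divided among similar sequences.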

How the data were processed

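Transcripts of S. pombe grown at 3 glucose concentrations were sequenced, 1 library per concentration. By the methods of the study, the authors aligned filtered reads with BWA and Bowtie and estimated expected counts with RSEM, which need not be whole. The deposited FPKM values were derived by the authors from these counts, transcript length and library size. Deposited transcript lengths served for fragment totals. The tables also hold the authors' own log2 ratios, p-values and, for 2 of them, FDR, which were not used. They are taken to list screened genes only, 444 in all, of which 387 were named through ASM294v3 and 28 by their description.

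The first sheets of the 3 workbooks were joined by gene identifier in pandas 2.3.3 and numpy 2.4.6 (Python 3.11.15), and intervals came from scipy 1.17.1. Ratios are of FPKM, without a pseudocount. For each ratio, the binomial interval of the first count out of both was turned into a ratio, a step tested on simulated data. A test between concentrations could not be made with single libraries. Precision was lowest for git11, which had the fewest counts.

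The members and lists were chosen with earlier results of these data known. Named were the members, list genes in a table, the 3 genes nearest to a member with 3 values, and tabled neighbours. Alternatives were a pseudocount of 1 FPKM, counts scaled by the fragment totals, Wilson intervals, a minimum of 10 FPKM, a log2 ratio of at least 2, log2(FPKM + 0.1) for likeness, and the second sheets. Protein sequences were not used.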

Additional observations from a re-analysis of the deposited data

How the results depend on the processing

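Of the 24 alternatives for the log2 ratios of the members, 12 could move the value, those with a pseudocount or with counts scaled by the implied totals. Under these 12 the ratios kept their direction and stayed within their counting intervals, with a largest shift of 0.057. The implied totals come from the same FPKM. Wilson intervals and the minimum FPKM leave a ratio as it is. Every member was also present in the second sheet of the table in which the first sheet has it. The numbers of tabled genes depended on the fold asked for. At a log2 ratio of at least 2 in either direction, 61 genes were left for T1 vs T3. For T1 vs T2 and T2 vs T3, 18 and 37 were left. None of the 4 members was among these genes, since their largest decrease was a log2 ratio of -1.87, for cgs1 in T3 against T1. Of the 3 genes nearest to cgs2, 2 were the same with log2(FPKM + 0.1), where hry1 took the place of psi1. No paired analysis was possible because each concentration has a single pooled library, and for the same reason no library could be left out. Counting error limits git11 most, with 9.45% of its count in T3. Differences between the 3 pooled replicates of a concentration are not measured by any value here.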
